A study of Mus musculus with 8 samples.

Results

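The 48 genes described here act in mitosis and in the G2 phase that precedes it. They were taken by symbol from a list of cyclins, mitotic kinases, checkpoint proteins, kinesins, centromere proteins, condensins and cytokinesis factors, and all 48 were among the 23284 genes of the expression files. No measured value entered the choice by symbol, although earlier results of these data were known when the list was drawn up. All 48 also passed the filter on low values, which kept 11931 genes for testing. As FPKM (fragments scaled to transcript length and library size), their means over the 8 libraries ran from 5.45 for Cenpf to 347 for Cks1b.

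RNA was sequenced from LSK cells, the Lineage- Sca-1+ c-Kit+ fraction of mouse bone marrow that holds the blood stem cells and the earliest multipotent progenitors. All animals were C57BL/6 males aged 12 to 13 weeks that were fasted for more than 14 hours and then injected intravenously in the early morning, on 7 days. One group of 2 libraries came from mice given glucose at 2 g/kg. A second group of 2 came from mice given glucose at 2 g/kg together with a lipid emulsion (Intralipid 20%, 6 ml/kg), and the 4 remaining libraries came from mice given PBS. On day 8 femur and tibia marrow was taken, and RNA was prepared from about 10000 sorted cells per library. The study gives each treatment its own PBS controls, with 2 libraries on each side. The PBS libraries carry the letters H, I, J and K in their sample descriptions. PBS H and I were taken as the controls of glucose with lipid because its libraries bear the same letters and the same tag in the files. PBS J and K were left as the controls of glucose alone, which is an inference from the names and not a statement of the labels. The labels call the libraries biological replicates but do not say whether each came from 1 mouse or from a pool. With 2 libraries a group, every p-value measures the spread between these libraries only.

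A dividing cell enters mitosis when cyclin B binds and activates the kinase CDK1, which together with the polo and Aurora kinases drives chromosome condensation and spindle assembly. The spindle checkpoint holds the cell in metaphase until every kinetochore is attached, after which the anaphase-promoting complex marks securin and cyclin B for destruction and the daughter cells part. Transcripts of these genes accumulate in G2 and M, largely through promoter elements read by the MuvB complexes with B-MYB and FOXM1 and by NF-Y. Most long-term stem cells in the marrow are quiescent, and cycling cells of the LSK gate are mainly multipotent progenitors. In RNA from bulk sorted cells, fewer cells in G2 and M and less transcript in each such cell cannot be told apart.

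The promoters of these genes are known for sharing 2 short elements, so the sequences upstream of 7 members are shown, 5 with both elements and 2 with neither. The elements are the cell cycle genes homology region (CHR, searched as TTTGAA and TTCGAA) and the CCAAT box bound by NF-Y. Both strands were searched, so that TTCAAA and ATTGG in the printed strand also count. TTCGAA reads the same on either strand and was counted once, and a CCAAT overlapping an ATTGG was counted as 2 matches. Each line gives the 200 bases before the transcription start that RefSeq gives on GRCm38.p6, on the gene's own strand, 5′ to 3′, with matches in capitals. Cyclin B2 and the anaphase activator Cdc20 carry both elements, as do topoisomerase II alpha and the condensin subunits Ncapd2 and Ncapg, whose levels are among those described in most detail here. The checkpoint genes Trip13 and Mad2l1 carry neither and are shown for contrast, since their levels are also described in detail.
Ccnb2: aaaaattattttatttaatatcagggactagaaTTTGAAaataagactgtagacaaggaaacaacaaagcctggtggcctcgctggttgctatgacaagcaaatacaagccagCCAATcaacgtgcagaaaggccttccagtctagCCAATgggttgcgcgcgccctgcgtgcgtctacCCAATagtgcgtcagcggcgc
Cdc20: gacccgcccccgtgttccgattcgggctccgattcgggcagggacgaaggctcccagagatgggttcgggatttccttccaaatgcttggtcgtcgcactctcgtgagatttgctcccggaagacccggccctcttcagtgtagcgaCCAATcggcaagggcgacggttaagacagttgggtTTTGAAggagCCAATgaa
Top2a: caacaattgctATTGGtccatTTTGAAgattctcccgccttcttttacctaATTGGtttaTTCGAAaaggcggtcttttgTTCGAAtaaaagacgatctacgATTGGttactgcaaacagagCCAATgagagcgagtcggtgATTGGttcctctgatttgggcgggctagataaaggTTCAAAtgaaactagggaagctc
Ncapd2: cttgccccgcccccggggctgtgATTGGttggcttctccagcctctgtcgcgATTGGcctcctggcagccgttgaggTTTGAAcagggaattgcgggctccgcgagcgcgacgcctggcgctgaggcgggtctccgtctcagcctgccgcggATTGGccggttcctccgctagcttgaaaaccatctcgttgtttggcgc
Ncapg: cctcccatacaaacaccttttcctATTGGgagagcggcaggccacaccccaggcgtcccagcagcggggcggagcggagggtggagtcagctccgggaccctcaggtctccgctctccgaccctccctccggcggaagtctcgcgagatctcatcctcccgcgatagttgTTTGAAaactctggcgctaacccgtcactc
Trip13: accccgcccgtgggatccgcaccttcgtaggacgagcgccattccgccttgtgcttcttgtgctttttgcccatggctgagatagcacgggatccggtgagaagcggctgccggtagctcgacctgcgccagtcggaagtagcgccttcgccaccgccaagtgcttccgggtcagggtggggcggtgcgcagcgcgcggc
Mad2l1: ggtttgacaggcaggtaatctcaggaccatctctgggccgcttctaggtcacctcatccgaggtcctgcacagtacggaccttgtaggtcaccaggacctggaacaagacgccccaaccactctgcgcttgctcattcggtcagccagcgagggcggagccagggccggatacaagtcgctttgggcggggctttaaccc
The windows lie, in the same order, at chr9:70421555-70421754 (minus strand), chr4:118437344-118437543 (minus strand), chr11:99024190-99024389 (minus strand), chr6:125191587-125191786 (minus strand), chr5:45669725-45669924 (plus strand), chr13:73937768-73937967 (minus strand) and chr6:66535021-66535220 (plus strand). The gene positions given further on are from GENCODE, whose starts can differ. For Mad2l1 the GENCODE start lies 169 bases downstream of the RefSeq one, so that the bases just before it were not searched in full, and part of the Ncapd2 window lies inside the GENCODE gene.
Top2a had the most matches of the 7, with 5 CCAAT boxes and 4 CHR matches in the printed bases. In Cdc20 and Ncapg the only CHR match lies close to the start, as the printed lines show. Top2a also has one there, and its other 3 lie farther upstream.

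RefSeq promoters were matched for 41 of the 48 members, with 43 windows because Ect2 and Prc1 have more than one start. Smc4, Cdc25c, Tpx2, Ccna2, Incenp, Aurkb and Kif20a had no entry. Over the 250 bases before the start, a CCAAT box was present in 34 of the 43 windows (79.1%), against 33.8% of all 32851 windows of the table. CHR letters were present in 18 windows (41.9%, against 17.1%), and both elements in 17 windows (39.5%, against 6.02%). By gene, 32 of 41 members had a CCAAT box, 17 had CHR letters and 16 had both. A match says only that these letters occur in the window. The 32 members with a CCAAT box had a median log2 fold change of -0.10 after glucose and -0.33 after glucose with lipid, each against its own controls. The 9 members without one had medians of -0.28 and -0.19. The PBS pairs differed along the same split, with medians of 0.28 with a CCAAT box and 0.02 without. Over all treated against all PBS libraries the medians were -0.22 and -0.25. The 17 members with CHR letters had medians of -0.14 after glucose and -0.34 after glucose with lipid. For the 24 without them the medians were -0.16 and -0.19. With and without CHR letters, the medians were 0.27 and 0.22 between the PBS pairs, and -0.25 and -0.21 over all treated libraries. These medians are descriptions with no test.

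The labelled cell type held at the level of its markers. All 12 stem and progenitor genes listed for the gate were at 1 FPKM or more in all 8 libraries, with Kit from 164 to 198 and Ly6a, which encodes Sca-1, from 295 to 424 FPKM. Their sum was not even between groups, at 1952 and 2095 FPKM with glucose and 1684 and 2134 with glucose and lipid. It was 1693 and 1779 in PBS H and I and 1665 and 1831 in PBS J and K. One library stood apart: glucose with lipid replicate 1 had a summed level of 66134 FPKM over 13 neutrophil markers, where the other 7 had 148 to 461. It was also the highest for the erythroid list (3393 against 1171 to 2375 FPKM), the B lineage list (211 against 42.2 to 74.6) and the monocyte and macrophage list (396 against 58.2 to 98.6). The erythroid sum of 2375 FPKM was that of glucose with lipid replicate 2, with PBS I next at 1739. Hba-a1 was highest of all in glucose with lipid replicate 2, at 668 FPKM. The T and NK list, summing to 374 to 513 FPKM, consisted mostly of Nkg7, and Cd3e did not exceed 3.77 FPKM in any library. The megakaryocyte list was lowest in PBS H and I, at 256 and 267 FPKM, where the other libraries had 348 to 414. The part of such marker differences in the levels of the members was not tested. The members' results of the lipid comparison are given with and without glucose with lipid replicate 1, by role and for the genes with fold changes. The number of sequenced fragments per library is not known from the files, so no counting interval can be given.

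Of the 48 members, none passed an adjusted p of 0.05 in any comparison by limma, and none did so under any alternative setting tried. After glucose alone, 33 of 48 members had a log2 fold change below 0 against PBS J and K, with a median of -0.17 and a range of -0.81 to 0.34. Over all tested genes 50.0% lay below 0 and the median was 0.00. After glucose with lipid, all 48 members had a log2 fold change below 0 against PBS H and I, with a median of -0.29 and a range of -0.97 to 0.00. Of all tested genes 48.2% lay below 0 in that comparison, with a median of 0.01. The 33 members below 0 after glucose were thus below 0 in both comparisons, 15 were below 0 with lipid only, and 0 were above 0 in both.

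At an unadjusted p under 0.05, 9 members were lower and 0 higher after glucose alone, where 8.44% of all genes were lower and 6.41% higher. After glucose with lipid the counts were 11 lower and 0 higher, against 5.93% and 5.87% of all genes. By adjusted p, limma called 0.101% of all tested genes after glucose and 0.0754% after glucose with lipid. The smallest adjusted p of a member was 0.0945 after glucose, for Trip13, and 0.120 after glucose with lipid, for Smc4.

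**Figure D1:**
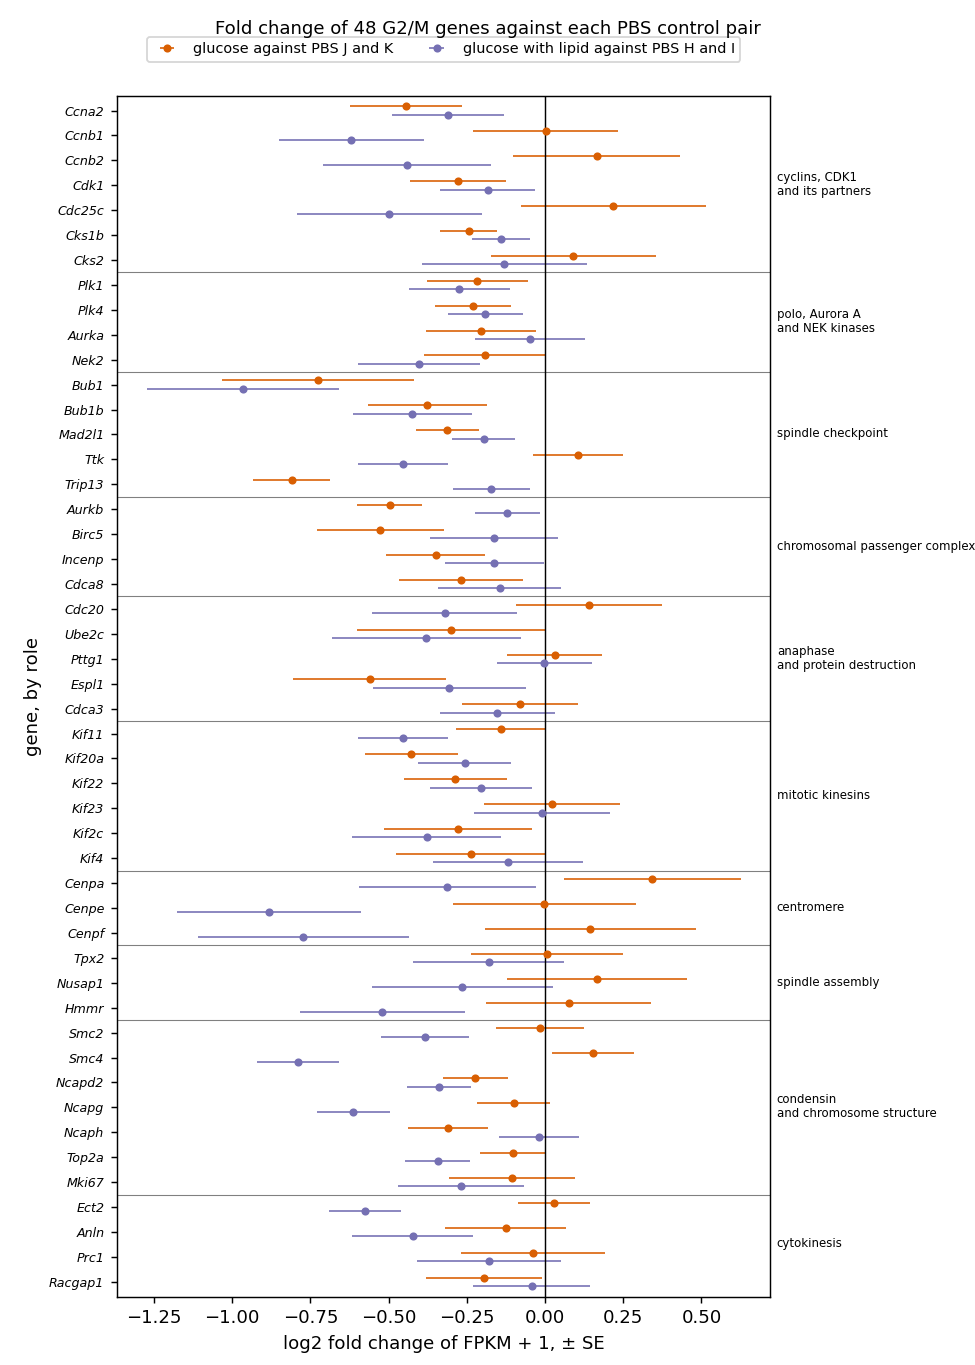
Log2 fold change of FPKM + 1 with its standard error (x axis) for each of the 48 genes (y axis, grouped by role), for glucose against PBS J and K and for the lipid group against H and I, 2 libraries a group. All 48 points of glucose with lipid lie at or below 0, and 33 of the 48 points of glucose alone do.

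The levels of the groups were also compared library by library. Both glucose libraries lay below both PBS J and K for 21 of 48 members, and above them for 0, where 24.8% of all genes were lower without overlap and 22.3% higher. Both libraries of glucose with lipid lay below both PBS H and I for 29 members and above them for 0, against 21.8% and 22.2% of all genes. There were 13 members without overlap on the lower side in both comparisons, as were 4.98% of all genes. In the second comparison the count was 44 without glucose with lipid replicate 1 (37.4% of all genes then lay lower without overlap) and 45 without PBS H (33.4%). In the first it was 38 without glucose replicate 2 (37.0% of all genes) and 32 without PBS J (36.2%).

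The PBS pairs themselves differed in these genes. PBS H and I lay above PBS J and K for 42 of 48 members, with a median log2 difference of 0.23, where 49.9% of all tested genes lay below 0 and the median was 0.00. Without overlap, 22 members were higher in PBS H and I and 2 lower (Cks1b and Trip13), against 24.4% and 25.3% of all genes. Limma called 0 members here (0.0503% of all genes), with 9 higher and 2 lower at an unadjusted p under 0.05, against 7.53% and 9.72% of all genes. The median was 0.10 without PBS I, 0.15 without PBS J and 0.34 without PBS H, and the members below 0 then numbered 14 and 12 without PBS I and PBS J. The count of members without overlap on the higher side was 41 without PBS H and 34 without PBS K (36.4% and 38.6% of all genes). The difference between control pairs, which both received PBS only, was thus of the same size as the treatment medians.

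Because the assignment of controls was inferred, each treatment was also set against the other PBS pair. These comparisons share their treated libraries with the ones above, so the values are given side by side only. Glucose had a median of -0.42 against PBS H and I, with 47 of 48 members below 0 and 34 lower without overlap (20.5% of all genes). Glucose with lipid had a median of -0.04 against PBS J and K, with 29 members below 0, 11 lower and 3 higher without overlap (24.1% and 21.9% of all genes). The 3 that were higher were Ccnb2, Kif23 and Hmmr. Thus the lower level after glucose with lipid was seen against PBS H and I and hardly against PBS J and K.

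With all 4 treated libraries against all 4 PBS libraries, the control set being a term of the fit, 45 of 48 members lay below 0 (51.3% of all genes), with a median of -0.24. Limma called 0 members (0.268% of all genes, all of them higher), and 15 were lower and 0 higher at an unadjusted p under 0.05, against 5.22% and 6.18% of all genes. All 4 treated libraries lay below all 4 PBS libraries for 6 members, Plk4, Mad2l1, Trip13, Ncapd2, Ncapg and Top2a, and above them for 0, where 2.84% of all genes were lower in this way and 3.55% higher. Because the order holds over all 4 PBS libraries, it does not depend on which pair is the control of which treatment. The count was 16 without glucose with lipid replicate 1 (5.18% of all genes) and 14 without PBS J (3.72%). It stayed between 6 and 8 when any other single library was left out.

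**Figure D2:**
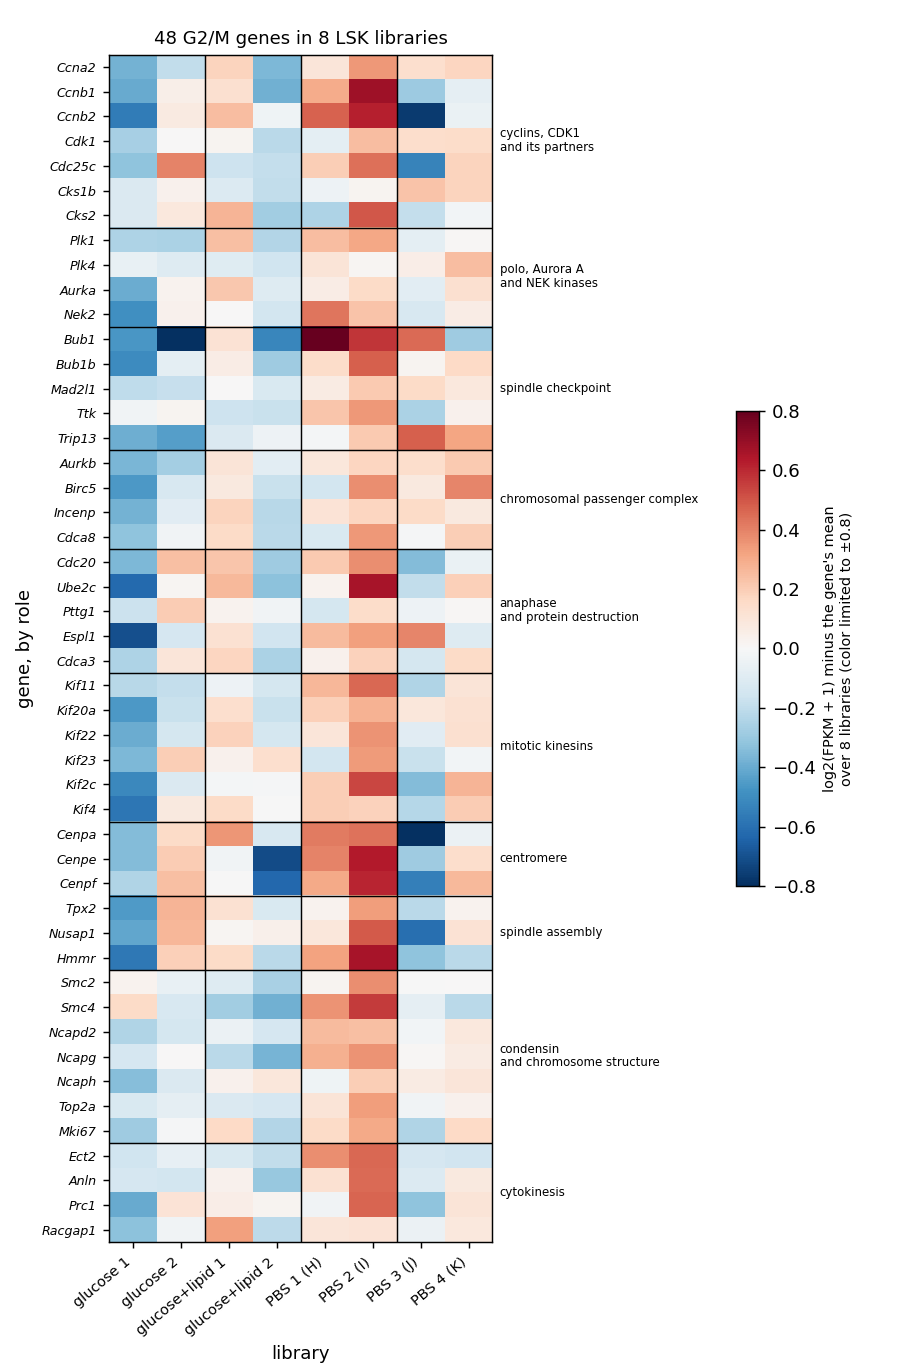
Level of each of the 48 genes (rows, by role) in each of the 8 libraries (columns), as log2(FPKM + 1) minus that gene's mean over the 8 libraries. PBS I is above the gene's mean in 48 of 48 rows and glucose replicate 1 below it in 46 of 48.

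The members moved together between libraries of the same group. Taking each gene relative to its mean over the 8 libraries, on the log2(FPKM + 1) scale, the median over the 48 members was lowest in glucose replicate 1, at -0.35, and highest in PBS I, at 0.35. It was -0.02 in glucose replicate 2, 0.06 and -0.19 in glucose with lipid replicates 1 and 2, 0.12 in PBS H, -0.09 in PBS J and 0.09 in PBS K. Glucose with lipid replicate 1 thus lay close to PBS K and above PBS J. The order of the 8 libraries did not separate treated from PBS libraries.

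Within each group one library was higher for most members, an orientation read from the values themselves. Glucose replicate 2 was above replicate 1 for 41 of 48 members, with a median difference of 0.29 (50.4% of all genes were above). Glucose with lipid replicate 1 was above replicate 2 for 43 members, with a median of 0.25 (51.0% of all genes). PBS I was above PBS H for 43 members (median 0.21, 49.8% of all genes), and PBS K above PBS J for 40 (median 0.17, 46.5%). In these 4 pairs 29 members were on the higher side every time, 15 in 3 pairs, 2 in 2 pairs (Plk4 and Smc4) and 2 in 1 pair (Bub1 and Trip13). The S phase genes did not follow this order: only 4, 17, 10 and 7 of 34 lay above in the same pairs. The shift between libraries of one group was as large as the medians of the treatment comparisons.

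**Figure D3:**
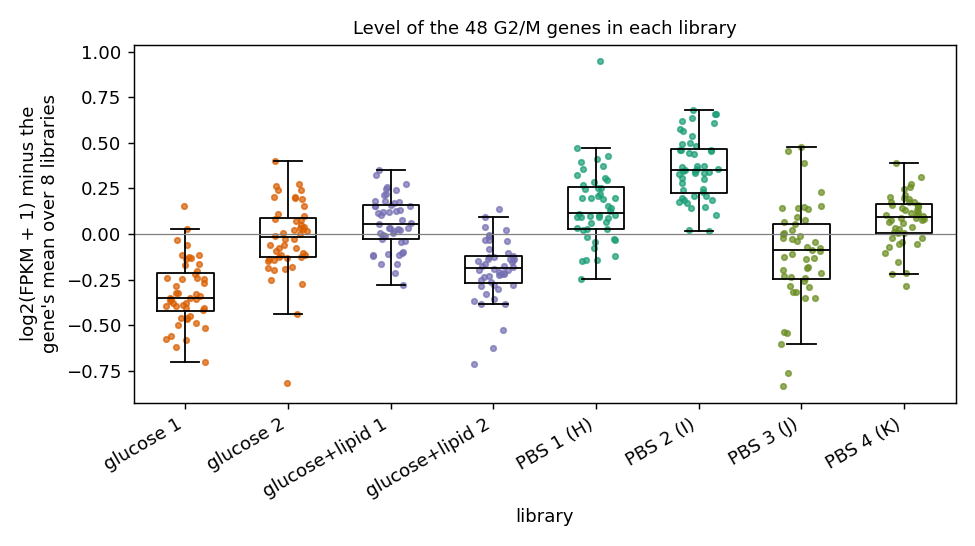
Level of the 48 genes in each library as log2(FPKM + 1) minus each gene's mean over the 8 libraries (y axis), by library (x axis), with 1 point for each gene, boxes for the quartiles and median, and whiskers to the farthest gene within 1.5 box lengths. The medians run from -0.35 in glucose replicate 1 to 0.35 in PBS I, and the libraries of one group are 0.17 to 0.29 apart by the median difference.

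Cyclins, CDK1 and their partners carry out entry into mitosis. After glucose 3 of these 7 members lay below 0, with a median log2 fold change of 0.00, and after glucose with lipid all 7 did, with a median of -0.31. The role median of PBS H and I over J and K was 0.23. Against the other PBS pair the medians were -0.28 for glucose and 0.00 for glucose with lipid. Cks1b, a small CDK-binding subunit also needed for destruction of the inhibitor p27, had the highest level of all members (chr3:89415472-89418383, minus strand). It stood at 318 and 353 FPKM in glucose replicates 1 and 2, 320.3 and 301 in glucose with lipid, 335 and 349.8 in PBS H and I and 405 and 390.2 in PBS J and K. PBS J and K were the highest of the 8, and both glucose libraries lay below them without overlap. After glucose its log2 fold change was -0.24 ± 0.09 (SE, adjusted p = 0.293 by limma). Against PBS H and I the glucose libraries were not lower, since replicate 2 lay above both.

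Cyclin B2, a partner of CDK1, was named after its values were seen, since its fold change between the control pairs was the largest of the members. Ccnb2 (chr9:70407692-70421547, minus strand) had 112 and 125 FPKM in the controls H and I but 47.1 and 77.6 in PBS J and K. It stood at 54.4 and 84.8 FPKM with glucose, overlapping PBS J and K, and at 95.6 and 78.6 with glucose and lipid. Both lipid libraries were below one control pair and above the other. Cyclin B1, the main mitotic cyclin, had 19.6 and 27.2 FPKM with glucose, 28.8 and 19.9 with glucose and lipid, 32.6 and 42.8 in PBS H and I and 21.3 and 25.0 in PBS J and K. Both cyclin B genes have a pseudogene in the annotation, and how reads were shared between the copies is not given in the sources used here.

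The polo kinases, Aurora A and NEK2 drive centrosome maturation and duplication. All 4 members lay below 0 in both treatment comparisons, with medians of -0.21 after glucose and -0.23 after glucose with lipid, and 0.20 between the PBS pairs. Against the other PBS pair the medians were -0.41 for glucose and -0.002 for glucose with lipid. Aurka, the centrosomal kinase with the highest level of the role (chr2:172356190-172370535, minus strand), had 30.5 and 41.3 FPKM with glucose, 47.2 and 37.6 with glucose and lipid, 42.3 and 45.0 in PBS H and I and 38.0 and 44.4 in PBS J and K, with overlap between treated and PBS libraries. Plk4, the kinase that starts centriole duplication (chr3:40800019-40816883, plus strand), had 23.9 and 23.2 FPKM with glucose, 23.2 and 22.2 with glucose and lipid, 26.9 and 25.2 in PBS H and I and 25.9 and 29.7 in PBS J and K. All 4 treated libraries of Plk4 lay below all 4 PBS libraries, the highest of the former at 23.9 and the lowest of the latter at 25.2 FPKM.

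The spindle checkpoint gave the lowest medians of any role with 5 or more members. Among smaller roles the chromosomal passenger complex was lower after glucose (-0.42) and the centromere after glucose with lipid (-0.77). After glucose 4 of 5 members lay below 0 (median -0.38), after glucose with lipid 5 of 5 did (median -0.42), and H and I over J and K had a median of 0.22. Without overlap, 4 members were lower after glucose (24.8% of all genes) and all 5 after glucose with lipid (21.8%). With the other PBS pair as controls these counts were 5 (20.5% of all genes) and 2 (24.1%). Trip13, the ATPase that remodels the checkpoint protein MAD2 (chr13:73911347-73937784, minus strand), had 27.1 and 26.2 FPKM with glucose and 33.1 and 34.9 with glucose and lipid. Its FPKM was 35.4 and 41.6 in the controls H and I, and 50.3 and 44.8 in J and K. The 4 groups did not overlap one another, with glucose alone the lowest and PBS J and K the highest. Its log2 fold change was -0.81 ± 0.12 (SE, adjusted p = 0.0945 by limma) after glucose, the smallest adjusted p among the members. Over all treated libraries it was -0.49 ± 0.14 (SE, adjusted p = 0.281 by limma), and it was -0.51 for glucose against PBS H and I.

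Mad2l1, which encodes the MAD2 protein that inhibits the anaphase-promoting complex (chr6:66535390-66547220, plus strand), had 65.0 and 65.9 FPKM with glucose, 75.3 and 68.8 with glucose and lipid, 78.6 and 86.8 in PBS H and I and 83.4 and 79.7 in PBS J and K. All 4 treated libraries lay below all 4 PBS libraries. Its log2 fold change was -0.31 ± 0.10 (SE, adjusted p = 0.251 by limma) after glucose and -0.25 ± 0.08 (SE, adjusted p = 0.320 by limma) over all treated libraries. Bub1, a kinase that recruits checkpoint proteins to kinetochores (chr2:127801122-127831865, minus strand), had 9.03 and 6.89 FPKM with glucose, 14.0 and 8.66 with glucose and lipid, 25.8 and 19.7 in PBS H and I and 18.0 and 10.4 in PBS J and K. It varied most of all members, by 3.74-fold between its highest and lowest library, and PBS K lay below glucose with lipid replicate 1. Over all treated libraries its log2 fold change was -0.85 ± 0.21 (SE, adjusted p = 0.232 by limma). Ttk, also known as MPS1, the kinase that starts checkpoint signalling (chr9:83834689-83872389, plus strand), had 15.3 and 15.2 FPKM with glucose and lipid against 20.3 and 22.3 in PBS H and I, but 14.3 and 17.8 in PBS J and K and 16.9 and 17.6 with glucose. For Ttk the log2 fold change after glucose with lipid was -0.45 ± 0.14 (SE, adjusted p = 0.312 by limma).

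The chromosomal passenger complex corrects faulty attachments and later acts at the cleavage furrow. All 4 members lay below 0 in both treatment comparisons, with a median of -0.42 after glucose and -0.15 after glucose with lipid, and the PBS pairs differed by a median of -0.01. Without glucose with lipid replicate 1 the second median was -0.31. With the other PBS pair as controls the medians were -0.39 and -0.15. Without overlap, all 4 were lower after glucose (24.8% of all genes) and 0 after glucose with lipid (21.8%). The latter count rested on 1 library, since without glucose with lipid replicate 1 all 4 were lower (37.4% of all genes). Aurkb, its kinase subunit (chr11:69045647-69051664, plus strand), had 61.2 and 65.3 FPKM with glucose, 85.3 and 74.7 with glucose and lipid, 84.3 and 89.4 in PBS H and I and 87.4 and 91.8 in PBS J and K. Both glucose libraries were below the other 6, while glucose with lipid replicate 1 lay above PBS H. Aurkb had a log2 fold change of -0.50 ± 0.10 (SE, adjusted p = 0.176 by limma) after glucose and -0.31 ± 0.10 (SE, adjusted p = 0.347 by limma) over all treated libraries. Birc5, which encodes survivin (chr11:117849251-117855743, plus strand), had 89.6 and 113 FPKM with glucose, 131 and 109 with glucose and lipid, 112 and 160.2 in PBS H and I and 131 and 162 in PBS J and K. The glucose libraries lay below PBS J and K, but one of them lay above PBS H. For Birc5 the log2 fold change after glucose was -0.53 ± 0.20 (SE, adjusted p = 0.303 by limma). The difference between the treatment effects, a test of its own, had a median of 0.27 over this role and no member passed (smallest adjusted p 0.381 by limma). That median was 0.11 without glucose with lipid replicate 1.

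Genes of anaphase and protein destruction release the sister chromatids and end mitosis. After glucose 3 of 5 members lay below 0 (median -0.08) and after glucose with lipid 5 of 5 (median -0.31), and 1 of 5 was lower without overlap in each (24.8% and 21.8% of all genes). Without glucose with lipid replicate 1 the second count was 4 (37.4% of all genes). The PBS pairs differed by a median of 0.15. Against the other PBS pair the medians were -0.35 for glucose and -0.03 for glucose with lipid. Ube2c, the ubiquitin-conjugating enzyme of the anaphase-promoting complex (chr2:164769898-164778822, plus strand), had 71.9 and 112 FPKM with glucose, 133 and 88.3 with glucose and lipid, 113 and 176 in PBS H and I and 96.8 and 127 in PBS J and K. The libraries of each treatment overlapped those of its own controls. Pttg1, which encodes securin, was the most even member, with a 1.30-fold span over the 8 libraries.

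Mitotic kinesins move chromosomes and build the spindle. After glucose 5 of 6 members lay below 0 (median -0.26) and after glucose with lipid all 6 did (median -0.23), with 0.21 between the PBS pairs. Against the other PBS pair the medians were -0.53 for glucose and 0.01 for glucose with lipid. Kif20a, a kinesin of the central spindle (chr18:34624613-34633277, plus strand), had 21.9 and 26.9 FPKM with glucose, 33.6 and 26.9 with glucose and lipid, 35.1 and 37.3 in PBS H and I and 32.7 and 33.4 in PBS J and K. Of the treated libraries only glucose with lipid replicate 1 reached the PBS levels. The log2 fold change of Kif20a was -0.43 ± 0.15 (SE, adjusted p = 0.265 by limma) after glucose and -0.34 ± 0.11 (SE, adjusted p = 0.345 by limma) over all treated libraries. Kif22, a chromosome-arm kinesin (chr7:127027729-127042471, minus strand), had 44.3 and 53.1 FPKM with glucose, 66.7 and 53.1 with glucose and lipid, 62.7 and 75.4 in PBS H and I and 54.9 and 64.2 in PBS J and K. Its glucose libraries were below PBS J and K without overlap, and those with lipid overlapped PBS H and I.

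The 3 centromere members showed the widest gap between the comparisons. After glucose 1 of 3 lay below 0 (median 0.15), after glucose with lipid all 3 did (median -0.77), and PBS H and I were above PBS J and K by a median of 0.60. With J and K as controls the median of glucose with lipid was -0.17. Cenpa, the histone H3 variant that marks centromeres (chr5:30666777-30674830, plus strand), had 38.0 and 54.1 FPKM with glucose, 62.3 and 44.5 with glucose and lipid, 65.0 and 66.2 in PBS H and I and 26.8 and 47.1 in PBS J and K. PBS J was the lowest and PBS H and I the highest of the 8 libraries. The spindle assembly genes Nusap1, Tpx2 and Hmmr also differed between the controls, with a median of 0.53 for PBS H and I over J and K. After glucose 0 of these 3 lay below 0 (median 0.08), and after glucose with lipid all 3 did (median -0.26), although their median was 0.24 against PBS J and K. Nusap1, a microtubule-bundling protein (chr2:119618298-119651244, plus strand), had 24.6 and 39.9 FPKM with glucose, 33.4 and 34.0 with glucose and lipid, 35.3 and 46.9 in PBS H and I and 21.5 and 36.0 in PBS J and K.

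**Figure D4:**
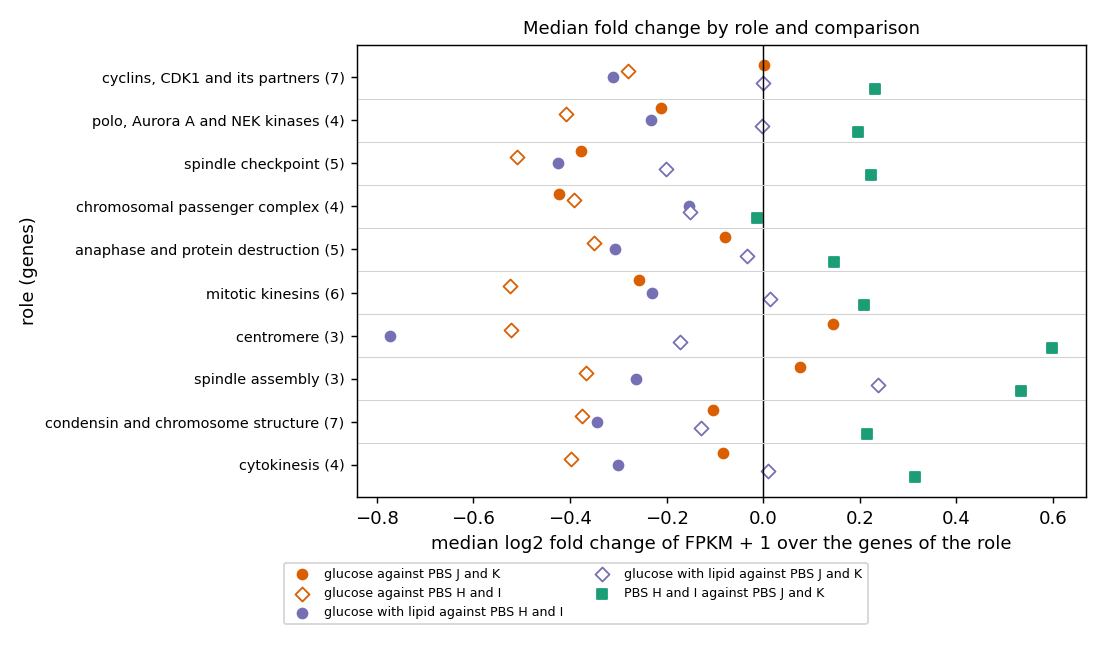
Median log2 fold change of FPKM + 1 over the members of each role (x axis), by role with its number of genes (y axis), for the treatment comparisons, the crossed comparisons and the PBS pairs against each other. For centromere and spindle assembly genes the medians of glucose with lipid lie at -0.77 and -0.26 against PBS H and I and at -0.17 and 0.24 against PBS J and K.

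Condensin subunits and other chromosome proteins compact the chromosomes. After glucose 6 of these 7 members lay below 0 (median -0.10), after glucose with lipid all 7 did (median -0.34), and the PBS pairs differed by a median of 0.22. Against the other PBS pair the medians were -0.38 for glucose and -0.13 for glucose with lipid. All 4 treated libraries lay below all 4 PBS libraries for 3 of these 7 members, where 2.84% of all genes did so. The spindle checkpoint had 2 of 5 and the polo, Aurora A and NEK kinases 1 of 4. Ncapd2, a condensin I subunit (chr6:125168007-125191701, minus strand), had 39.9 and 42.8 FPKM with glucose, 45.7 and 42.9 with glucose and lipid, 56.5 and 56.1 in PBS H and I and 46.6 and 50.3 in PBS J and K. The highest treated library stood at 45.7 and the lowest PBS library at 46.6 FPKM, so the separation was narrow. Its log2 fold change was -0.34 ± 0.10 (SE, adjusted p = 0.292 by limma) after glucose with lipid and -0.28 ± 0.08 (SE, adjusted p = 0.278 by limma) over all treated libraries.

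Ncapg, a second subunit of condensin I (chr5:45669919-45700546, plus strand), had 27.8 and 30.7 FPKM with glucose, 26.2 and 23.4 with glucose and lipid, 37.4 and 39.4 in PBS H and I and 30.7 and 32.0 in PBS J and K. All 4 treated libraries lay below all 4 PBS libraries, but glucose replicate 2 and PBS J were nearly level, and glucose with lipid was the lowest group. Ncapg had a log2 fold change of -0.61 ± 0.12 (SE, adjusted p = 0.186 by limma) after glucose with lipid. Top2a, topoisomerase II alpha, which untangles sister chromatids (chr11:98992943-99024189, minus strand), had 88.5 and 91.5 FPKM with glucose, 89.1 and 87.8 with glucose and lipid, 104 and 122 in PBS H and I and 94.5 and 99.0 in PBS J and K. The 4 treated libraries were close to one another, while the PBS libraries were all higher and more spread. The log2 fold change of Top2a after glucose with lipid was -0.34 ± 0.10 (SE, adjusted p = 0.296 by limma), and -0.22 ± 0.09 (SE, adjusted p = 0.392 by limma) over all treated libraries. Both genes have CHR letters and a CCAAT box among the promoters shown, as does Ncapd2. Plk4, Mad2l1 and Trip13, whose 4 treated libraries also lay below all 4 PBS libraries, had neither element in the bases searched. Of the 41 members matched, 8 had neither.

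Smc4, a core subunit of both condensins (chr3:69004738-69034623, plus strand), had 87.4 and 71.8 FPKM with glucose, 64.7 and 59.9 with glucose and lipid, 101 and 116 in PBS H and I and 74.7 and 67.6 in PBS J and K. The 2 libraries with lipid were the lowest of the 8 and PBS H and I the highest. Smc4 had a log2 fold change of -0.79 ± 0.13 (SE, adjusted p = 0.120 by limma) after glucose with lipid, but -0.19 against PBS J and K. PBS H and I exceeded PBS J and K in Smc4 by 0.60 ± 0.13 (SE, adjusted p = 0.125 by limma). It also had the smallest adjusted p of a member in the test of the difference between the treatment effects, at -0.95 ± 0.19 (SE, adjusted p = 0.238 by limma) on the log2 scale. That test contains the difference between the PBS pairs, so its value rests on the inferred assignment of controls.

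Cytokinesis factors had a median of -0.08 after glucose, with 3 of 4 below 0, and of -0.30 after glucose with lipid, with all 4 below 0. The PBS pairs differed by a median of 0.32. Against the other PBS pair the medians were -0.40 for glucose and 0.01 for glucose with lipid, the latter with 2 of 4 below 0. Ect2, the exchange factor that activates RhoA at the cleavage furrow (chr3:27097222-27153878, minus strand), had 30.9 and 32.9 FPKM in the controls H and I. The other 6 libraries lay between 20.5 and 22.6 FPKM, with 21.0 and 22.6 under glucose, 21.6 and 20.5 under glucose with lipid and 21.5 and 21.2 in PBS J and K. Its log2 fold change after glucose with lipid was -0.58 ± 0.11 (SE, adjusted p = 0.199 by limma), and PBS H and I exceeded PBS J and K by 0.56 ± 0.11 (SE, adjusted p = 0.117 by limma). In this gene PBS H and I stood apart from the treated libraries and from the other controls alike. Prc1, which bundles the microtubules of the central spindle (chr7:80294450-80316259, plus strand), had 35.7 and 51.4 FPKM with glucose, 49.4 and 48.4 with glucose and lipid, 46.7 and 66.0 in PBS H and I and 38.0 and 51.2 in PBS J and K. Treated and PBS libraries overlapped in both comparisons.

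**Figure D5:**
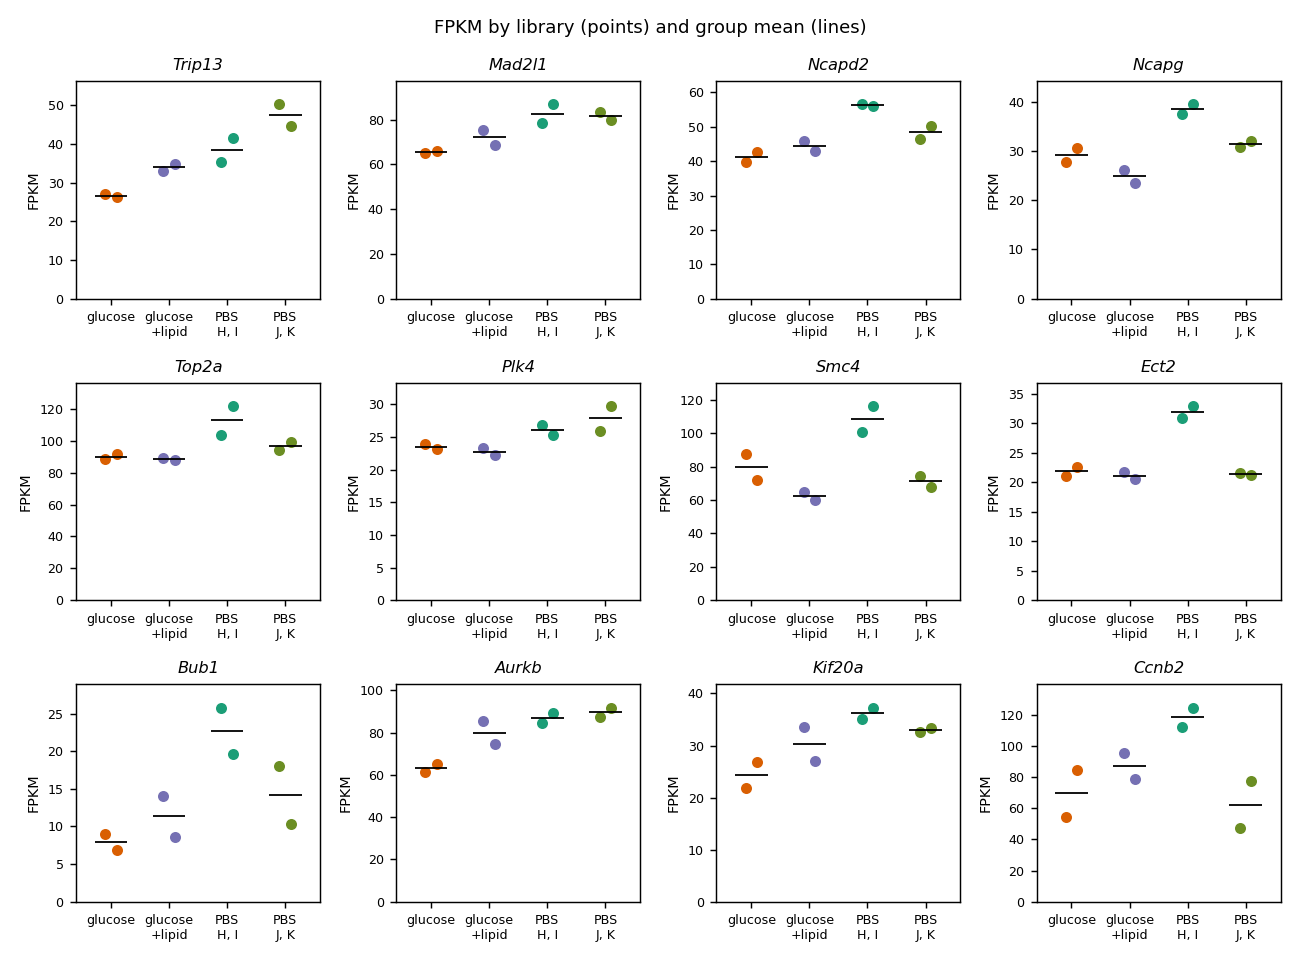
FPKM (y axis, from 0) of 12 genes in each library (points) with the mean of each group (lines), by group (x axis). In Trip13, Mad2l1, Ncapd2, Ncapg, Top2a and Plk4 all 4 treated points lie below all 4 PBS points. PBS H and I lie above the other PBS pair in Ect2, Smc4 and Ccnb2, and also in Ncapd2, Ncapg, Top2a, Bub1 and Kif20a.

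Glucose with lipid replicate 1, which stood apart by its neutrophil markers, was left out of the comparison with lipid in turn. Without that library the median of the 48 members against PBS H and I was -0.41, with 46 members below 0, and over all treated libraries it was -0.27, also with 46 below 0. Of all genes 49.2% and 51.7% then lay below 0 in these comparisons. At an unadjusted p under 0.05, 17 members were lower with lipid (5.72% of all genes) and 16 over all treated libraries (6.47%), and limma called 0 members. All of the lipid comparison then rests on 1 treated library, which is assumed to vary like the other groups. Without glucose with lipid replicate 2 the median was -0.15 instead. The role medians of the lipid comparison without replicate 1 were -0.51 for cyclins and CDK1 partners, -0.35 for the polo, Aurora A and NEK kinases and -0.46 for the spindle checkpoint. They were -0.44 for anaphase and protein destruction, -0.37 for the kinesins, -1.08 for the centromere and -0.30 for spindle assembly. For condensin and chromosome structure and for cytokinesis they were -0.46 and -0.45. Each of these lies farther from 0 than with both libraries. The log2 fold changes after glucose with lipid were -0.84 for Smc4, -0.69 for Ncapg, -0.61 for Ect2 and -0.46 for Ttk without replicate 1. They were -0.39 for Ncapd2 and -0.35 for Top2a, and the smallest adjusted p of these 6 was 0.224 by limma. Over all treated libraries, the log2 fold changes given for named genes other than Top2a were 0.87 to 1.24 times as large without replicate 1. The part of the neutrophil markers in these differences was not tested. For glucose alone the median was -0.04 without replicate 1 and -0.29 without replicate 2, and -0.05 and -0.26 without PBS K and PBS J.

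The difference between the treatment effects was tested directly. Its median over the members was -0.11, with 31 of 48 below 0 (46.7% of all genes), and limma called 0 members (0.0168% of all genes). At an unadjusted p under 0.05, 4 members were below and 2 above 0, against 6.18% and 6.03% of all genes. The median lay between -0.28 and 0.08 as single libraries were left out. It was -0.28 without glucose replicate 1, -0.27 without glucose with lipid replicate 1 and 0.08 without glucose replicate 2. This test contains the difference between the PBS pairs, so it rests on the inferred assignment of controls. With the pairs crossed, the treatment medians were -0.42 for glucose and -0.04 for glucose with lipid. That is the opposite order from -0.17 and -0.29 with the inferred controls. No difference between glucose and glucose with lipid in these genes was established.

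Further genes of the pathway were read from a longer list of G2 and mitosis genes, of which 125 passed the filter. After glucose 83 lay below 0 (median -0.08), after glucose with lipid 94 (median -0.15), and over all treated libraries 108 (median -0.12). PBS H and I lay above PBS J and K for 80 of them (median 0.09). Limma called 0 of the 125 in each comparison. At an unadjusted p under 0.05, 10 were lower and 1 higher after glucose, 26 and 0 after glucose with lipid, and 15 and 0 over all treated libraries. Over all genes 8.44%, 5.93% and 5.22% were lower, so the count after glucose lay near the background. Without glucose with lipid replicate 1 the lipid comparison had 91 of them below 0, a median of -0.18 and 24 lower. The 33 kinetochore and checkpoint genes of this list had medians of -0.07 and -0.23 in the first and second of these, and the 13 cohesin genes 0.09 and -0.28. The 15 subunits of the anaphase-promoting complex and its partners had medians of -0.10 and 0.02. Without glucose with lipid replicate 1 the lipid medians of these 3 groups were -0.29, -0.21 and -0.08, the last with the other sign.

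Cenpw, a histone-fold protein of the inner kinetochore, had 27.7 and 23.2 FPKM with glucose, 20.0 and 21.9 with glucose and lipid, 32.0 and 32.2 in PBS H and I and 32.3 and 30.8 in PBS J and K. All 4 treated libraries lay below all 4 PBS libraries, and the PBS libraries were nearly level. Cenpw had a log2 fold change of -0.59 ± 0.13 (SE, adjusted p = 0.216 by limma) after glucose with lipid and -0.45 ± 0.10 (SE, adjusted p = 0.194 by limma) over all treated libraries. Cdca5, also called sororin, which protects sister chromatid cohesion, had 49.9 and 46.3 FPKM with glucose, 43.6 and 47.9 with glucose and lipid, 51.8 and 59.6 in PBS H and I and 56.5 and 60.2 in PBS J and K. Its treated libraries were the 4 lowest, with a log2 fold change of -0.28 ± 0.08 (SE, adjusted p = 0.318 by limma) over all treated libraries. Kif20b, a kinesin of late cytokinesis, had 12.0 and 16.0 FPKM with glucose, 12.2 and 13.0 with glucose and lipid, 21.1 and 25.2 in PBS H and I and 16.4 and 17.5 in PBS J and K. Its treated libraries were the 4 lowest, by a narrow margin over PBS J. Its log2 fold change was -0.83 ± 0.17 (SE, adjusted p = 0.200 by limma) after glucose with lipid and -0.55 ± 0.15 (SE, adjusted p = 0.278 by limma) over all treated libraries. Cenpw, Cdca5 and Kif20b were named for the smallest unadjusted p over all treated libraries, so this order follows in part from that choice. Of all genes, 2.84% had the 4 treated libraries below all 4 PBS libraries.

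For 2 further genes a lower level after glucose was seen against PBS J and K only. Tubg1, gamma-tubulin, had 51.8 and 47.4 FPKM with glucose and 80.7 and 59.6 in PBS J and K, but 48.6 and 49.7 in PBS H and I. Its log2 fold change after glucose was -0.48 ± 0.15 (SE, adjusted p = 0.243 by limma), and 0.01 against PBS H and I. Pmf1, a subunit of the MIS12 kinetochore complex, had 104 and 94.1 FPKM with glucose, 121 and 127 in PBS J and K and 85.1 and 95.8 in PBS H and I. Pmf1 had a log2 fold change of -0.32 ± 0.11 (SE, adjusted p = 0.256 by limma) after glucose, and 0.13 against PBS H and I. Spc24, a subunit of the NDC80 complex, had 75.9 and 72.1 FPKM with glucose, 76.5 and 68.8 with glucose and lipid, 81.9 and 79.8 in PBS H and I and 95.2 and 97.1 in PBS J and K. All 4 of its treated libraries lay below all 4 PBS libraries, as for 2.84% of all genes. It was named for its small unadjusted p after glucose, so this order follows in part from that choice. Spc24 had a log2 fold change of -0.37 ± 0.10 (SE, adjusted p = 0.214 by limma) after glucose.

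The genes of S phase give a comparison inside the cell cycle. After glucose all 34 of them lay below 0, with a median of -0.28, while after glucose with lipid 17 did, with a median of -0.01. PBS H and I lay below PBS J and K for 32 of 34 (median -0.24), the opposite side from the G2 and mitosis members. Limma called 0 of the 34 in these comparisons, with 13, 1 and 14 lower and 0 higher at an unadjusted p under 0.05, where 8.44%, 5.93% and 9.72% of all genes were lower. Without glucose with lipid replicate 1, the lipid comparison had 16 of the 34 below 0 and a median of 0.01. With the other PBS pair as controls the S phase medians were 0.01 for glucose and -0.30 for glucose with lipid. Over all treated against all PBS libraries, 31 of the 34 lay below 0 (median -0.15), the same side as the G2 and mitosis members. Limma called 0 of them there, with 6 lower and 0 higher at an unadjusted p under 0.05, against 5.22% and 6.18% of all genes. That median was -0.16 without glucose with lipid replicate 1.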

How the data were processed

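The 8 RNA sequencing libraries of sorted mouse LSK cells were made with SMART-Seq HT and Nextera XT kits per the labels' protocols. The authors deposited 1 file per library with 1 FPKM value per gene. Per the submitters' processing notes, TopHat2 2.0.13, Bowtie2 2.2.3, SAMtools 1.0, Cuffnorm 2.2.1 and the mm10 build were used. That the deposited values are FPKM was read from the naming of Cuffnorm and from the values. For the gene annotation, the normalisation between libraries and the fragment totals, nothing was given in the sources used here, so depth and counting error are unknown and a count test was not possible. The summed FPKM per library ran from 645780 to 778895.

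Genes at 1 FPKM or more in at least 2 libraries were kept (11931 of 23284). log2(FPKM + 1) was fitted with limma 3.58.1 in R 4.3.3 with a mean-variance trend, all 8 libraries and 4 groups in one fit, with 2-sided tests and Benjamini-Hochberg adjustment at 0.05 over all tested genes. Fold changes on this scale understate changes of low genes. The comparison of all treated with all PBS libraries had the control set as a covariate. The fitting script was tested on simulated data.

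The members, the longer G2/M list, the S phase list and the marker lists were chosen with earlier results of these data known. Fold changes with errors are given for the 6 members and the 3 other G2/M genes with the smallest unadjusted p in each treatment comparison, and levels per library for these and for the highest member of each role. One gene that this rule names is not reported here. Plk4, Ccnb1, Ccnb2, Pttg1 and the fold changes between the PBS pairs were chosen after their values were seen. The fold change of Top2a over all treated libraries also lies outside this rule. Gene positions are from GENCODE vM21 (GRCm38), and promoters from RefSeq (GRCm38.p6). Alternatives were another library scaling, a pseudocount of 0.1, no filter, only the groups compared, crossed or pooled controls, a replicate block, and leaving out each library.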

Additional observations from a re-analysis of the deposited data

Results flagged for a closer look

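Among the 4 PBS libraries, 2 members had a single value far from the other 3, by Dixon's 95% critical value for the gap over the whole range. Kif4, a chromosome-associated kinesin, stood at 11.03 FPKM in PBS J and at 15.1 to 15.2 FPKM in the other 3 (gap over range 0.961). Smc2, a core condensin subunit, stood at 46.1 FPKM in PBS I and at 35.3 to 35.9 FPKM in the other 3 (0.937). Chance flags about 1 in 20 such groups, and 48 members were looked at. PBS J had a median below 0 over the 48 members and PBS I the highest of all 8 libraries, so each value lies on the side of its library's other members.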

How the results depend on the processing

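No member passed limma's adjusted p of 0.05 in any of 65 fits over the 5 comparisons and their alternatives. With the crossed PBS pair the median of glucose went from -0.17 to -0.42, that of glucose with lipid from -0.29 to -0.044, and the latter's members below 0 from 48 to 29. Crossing also moved the members lower without overlap from 21 to 34 and from 29 to 11, and put Tubg1 (0.012) and Pmf1 (0.13) above 0 without passing the test. With all 4 PBS libraries as controls the medians were -0.28 and -0.20. Leaving out each library gave medians of -0.29 to -0.04 for glucose, -0.41 to -0.15 for glucose with lipid, -0.29 to -0.18 for all treated, -0.28 to 0.075 (without glucose replicate 2) for the difference between the treatments and 0.10 to 0.34 for the PBS pairs. Members below 0 ranged over 25 to 44, 41 to 48, 42 to 48, 22 to 37 and 4 to 14 in the same order. Members lower without overlap ranged over 21 to 38, 29 to 45 and 6 to 16 for the treatment comparisons, and those higher in PBS H and I over 22 to 41. These overlap counts, and the role and list values without glucose with lipid replicate 1, were recomputed under alternatives chosen after seeing the data, and fewer libraries overlap less by construction. Library scaling, the pseudocount, the filter and fitting only the groups compared moved no median by more than the spread between replicates (0.178) and no count by over 1.5 times. That spread is larger than the size of the glucose median (-0.17) and of the median difference between the treatments (-0.11). Staying within it therefore says little about these medians. Glucose with lipid and PBS H and I share replicate numbers, whose deviations correlated at 0.066 over 11931 genes. Each group gives only a single difference between its libraries, so this value cannot show whether they were processed as pairs. With the replicate block the medians stayed at -0.29, -0.24 and -0.11 and 0 members were called. Glucose and PBS J and K share no numbers, so no block could be fitted there. Unknown depth limits statements on the members of lowest level.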
